A study of Homo sapiens with 12 samples.

Results

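The comparison described here is 10 nM of a progestin against vehicle after 18 h in T47D, a human breast carcinoma line, and it rests on 4 of the 12 libraries of the study, chosen by the dose and time in their labels. Of the 6 groups, these are the 2 libraries at 10 nM for 18 h and the 2 vehicle libraries at 18 h, each numbered replicate 1 and replicate 3. All groups shared 1 line and 1 preparation: the cells were plated without phenol red in charcoal-stripped serum, which removes most steroid hormones, and were then starved of serum to synchronise them, so the vehicle groups are starved cells too. The class of the agent comes from the series title, and the labels name no compound. The title asks whether different progestin levels lead to different outputs, and the vehicle comparison, set beside 6 h at the same dose and 100 pM at the same time, bears on that question. The 10 nM libraries held 35808348 and 36177105 counts and the vehicle libraries 34774129 and 35551050, and levels are given as counts scaled to library size (CPM). Differences between groups are log2 fold changes ± SE from edgeR's quasi-likelihood fit to all 12 libraries. The fit gives no SE, so it was derived as the absolute log2 fold change over the square root of the test's F statistic. A gene was called changed at a Benjamini-Hochberg adjusted p under 0.05 over 13872 tested genes. The labels do not state whether replicates are separate cultures, so a p-value here speaks only to the variation among these libraries, which may be technical, and in bulk RNA fewer cells of a type and less RNA per cell cannot be told apart.

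Progestins act through the progesterone receptor (PGR), a nuclear receptor that binds DNA as a dimer once it holds its ligand and raises or lowers transcription of nearby genes. The glucocorticoid and mineralocorticoid receptors recognise closely related DNA elements. In the breast the receptor sits in luminal epithelial cells, where progesterone is known for driving alveolar development during pregnancy, and in T47D a progestin is known to push cells through the cycle for a time and then to slow them. T47D was checked against markers first. All 9 luminal markers were detected in all 4 libraries, with summed levels of 11800 and 11100 CPM in vehicle and 5420 and 5330 CPM at 10 nM, so the sum was lower in both treated libraries. The 4 basal markers summed to 5.28 to 6.15 CPM in vehicle and 10.1 to 13.0 CPM at 10 nM. Of these, KRT5 (0.0839 and 0.0542 CPM against 2.35 and 7.02 CPM) and TP63 (1.73 and 1.27 against 3.3 and 1.94 CPM) were higher at 10 nM. The groups overlapped for ACTA2 (4.03 and 3.82 against 4.19 and 3.96 CPM) and KRT14 (0.308 and 0.135 against 0.23 and 0.0843 CPM). The 5 immune markers stayed at or below 0.28 CPM in sum, and of the 2 endothelial markers in the table CDH5 was 0 in all 4 libraries and VWF reached 0.927 CPM. Of the 5 fibroblast markers COL1A1 made up most of the sum (115 and 120 CPM in vehicle, 80.5 and 72.2 CPM at 10 nM), and COL1A2 was 0 in 3 of the 4 libraries.

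The response was broad. At 18 h 2631 genes rose and 2103 fell at 10 nM, 4734 in all. That is 34.1% of the genes tested (19.0% higher, 15.2% lower), the shares to set beside each list count for this comparison below. The median absolute change of a called gene was 0.85 on the log2 scale, 1183 genes rose and 811 fell by more than 2-fold, and 318 rose and 82 fell by more than 8-fold. The median of all genes was within 0.01 of no change. In 33.2% of tested genes both 10 nM libraries lay above both vehicle libraries and in 32.6% both lay below. Calls became more frequent with abundance, from 27.2% of the least abundant 2775 genes to 43.2% of the most abundant 2775. With the replicate number as a block the count of calls was 7767 (3978 higher, 3789 lower), and all 4734 calls remained among them.

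**Figure D1:**
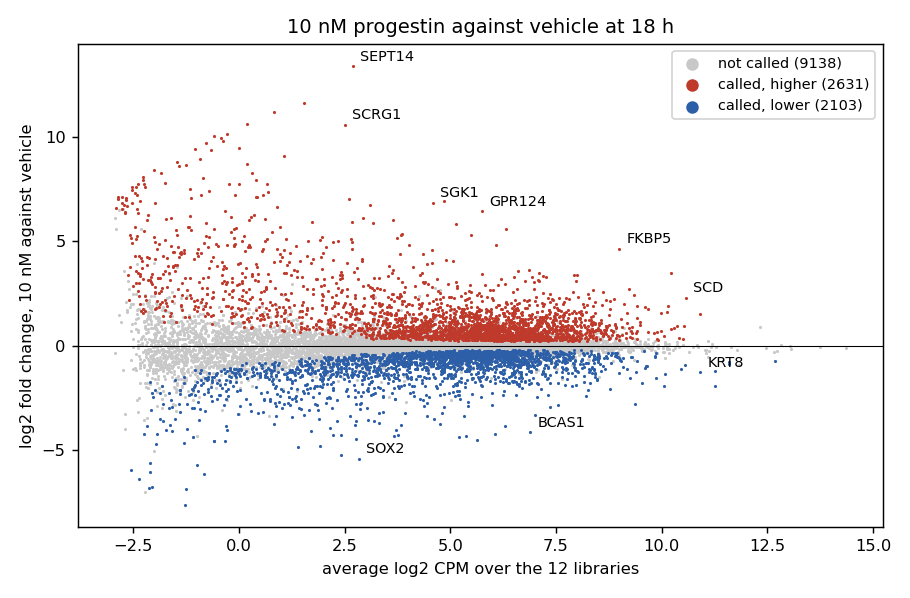
Each point is 1 of the 13872 tested genes, with its average level over the 12 libraries (log2 CPM) on the horizontal axis and its log2 fold change at 10 nM against vehicle at 18 h on the vertical axis; coloured points passed an edgeR adjusted p of 0.05. Called genes occur at all levels, the largest rises lie at low to middle levels, and abundant genes such as KRT8 (-1.26) and SCD (2.30) were called as well.

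Among genes averaging at least 2 in log2 CPM, the largest rises began near or at no counts. SEPT14, a septin of the cytoskeletal GTPase family, had 0 counts in both vehicle libraries and 1124 and 1418 at 10 nM (32.3 and 39.8 CPM). With a floor of 3 counts per library, that is at least 436-fold higher. SCRG1, a small secreted protein, had 1 count over the vehicle libraries against 1837 over the 10 nM libraries, a ratio of 1895 (exact 95% binomial interval from 340 to 74892, counting error only). In all, 54 called genes had no vehicle count, and a call on such a gene can only be a rise.

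SGK1, a serine and threonine kinase long known as steroid-induced, was at 0.308 and 0.352 CPM in vehicle and at 30.1 and 46.2 CPM at 10 nM. Its log2 fold change was 6.84 ± 0.56 (edgeR adjusted p = 4.16e-05). ZBTB7C, a zinc finger transcription factor, went from 0.112 and 0.65 to 45.5 and 48.3 CPM. GPR124, an adhesion G protein-coupled receptor, started higher, at 2.91 and 2.71 CPM, and reached 214 and 276 CPM (6.44 ± 0.31). Both libraries of each group were close together. GABRQ, a GABA-A receptor subunit, behaved alike and went from 2.57 and 2.82 to 140 and 161 CPM (5.80 ± 0.32).

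SLPI, a secreted inhibitor of serine proteases in mucosal and glandular fluids, rose from 0.643 and 0.487 to 38.9 and 38.0 CPM. S100P, a calcium-binding protein of the S100 family, rose from 0.559 and 0.298 to 33.8 and 21.9 CPM. For all of these genes the lower treated library exceeded the higher vehicle library many times over. They were chosen as large rises in groups that do not overlap, so this separation is given by the choice. The other large rises were C1orf168 (7.04 ± 0.71), ACOT6 (6.71 ± 0.80), an acyl-CoA thioesterase, ELFN2 (5.90 ± 0.79) and CNTFR (5.85 ± 0.30), the receptor subunit that binds ciliary neurotrophic factor.

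The largest falls, named under the same limit on average level, came from higher starting levels. That limit favours such a contrast with the rises, so the contrast is not a result. BCAS1, a gene first described as amplified in breast cancer, was at 216 and 209 CPM in vehicle and at 10.2 and 13.8 CPM at 10 nM (-4.14 ± 0.14, edgeR adjusted p = 1.08e-06). TGFB2, a TGF-beta ligand, fell from 100 and 70.8 CPM to 4.30 and 3.90 CPM. IL1R1, the signalling receptor for interleukin 1, fell from 118 and 81.4 CPM to 5.57 and 3.26 CPM. In each case the lowest vehicle library stood far above the highest treated one, which again is given by the choice of genes.

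SOX2, a transcription factor of stem and progenitor cells, was at 12.2 and 19.6 CPM in vehicle and 0.201 and 0.534 CPM at 10 nM (-5.42 ± 0.53). ROBO2, a receptor for Slit guidance proteins, fell from 82.6 and 70.3 CPM to 3.21 and 4.44 CPM. FGF12, an intracellular member of the fibroblast growth factor family that binds sodium channels, fell from 20.9 and 22.8 CPM to 1.09 and 1.12 CPM, with almost no spread within a group. ID1, an inhibitor of basic helix-loop-helix factors and a classic BMP target, varied more in vehicle (16.5 and 39.8 CPM) and was at 1.21 and 1.6 CPM at 10 nM. FAM65C (-4.22 ± 0.41), CBLN2 (-5.24), TPM4 (-4.29 ± 0.40), a tropomyosin of the actin cytoskeleton, and ENTPD3 (-4.46 ± 0.35), an ectonucleotidase, also fell. ACHE, acetylcholinesterase, was called as well (19.0 and 6.36 CPM against 0.89 and 0.421 CPM, edgeR adjusted p = 0.0276), but the call was lost without 10 nM replicate 1 (0.0933), 10 nM replicate 3 (0.135) or vehicle replicate 1 (0.117).

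**Figure D2:**
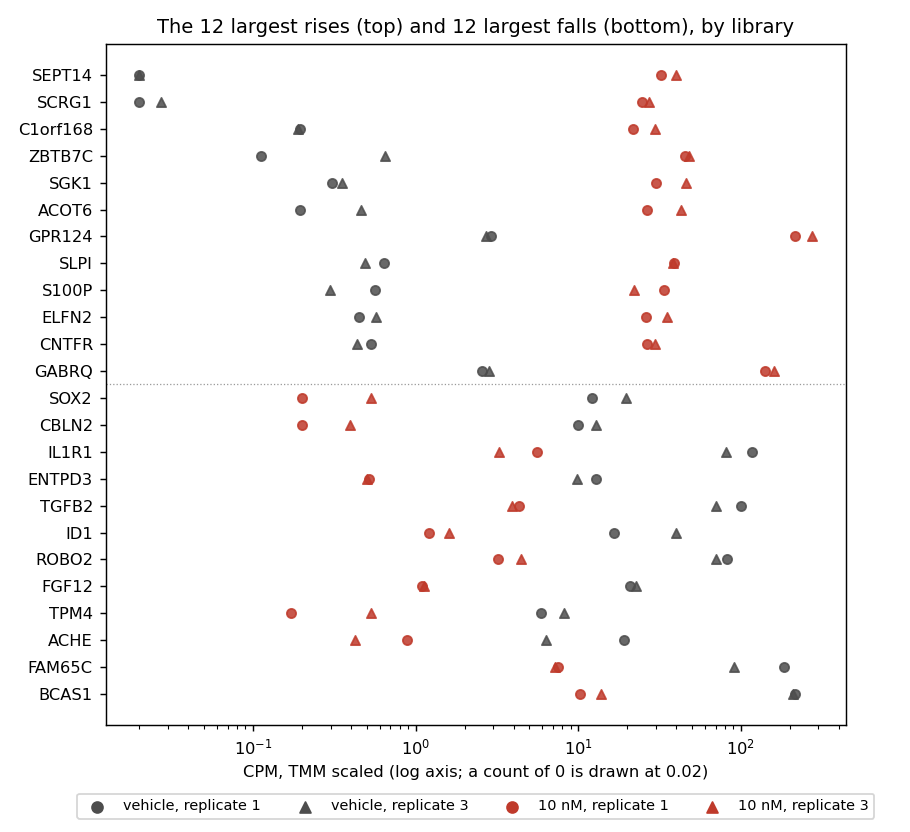
Levels of the 12 largest rises and 12 largest falls in each of the 4 libraries, as CPM on a logarithmic axis with a level of 0 drawn at 0.02; marker shape gives the replicate number and colour the group. The genes were chosen for groups that do not overlap, so their separation is given by the choice; the plot shows the level of each library and the spread within a group, which is wide for ID1 and ACHE in vehicle.

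Steroid receptor genes themselves fell where they changed: 3 of 6 tested members were lower and 0 higher (median -0.60, against -0.00204 over all genes). PGR was at 1846 and 1379 CPM in vehicle and at 523 and 328 CPM at 10 nM, a log2 change of -1.92 ± 0.30 (edgeR adjusted p = 0.00131). The receptor's own transcript thus declined, and the highest treated library stayed below the lowest vehicle library. ESR1, the estrogen receptor alpha gene, was at 165 and 189 CPM against 84.1 and 108 CPM (-0.88 ± 0.19, edgeR adjusted p = 0.00795), and without 10 nM replicate 1 the call was lost (-0.71, adjusted p = 0.0581). NR3C1, the glucocorticoid receptor, had a log2 change of -0.22 and was not called (edgeR adjusted p = 0.429).

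Of 38 tested genes of a list of classic progestin and glucocorticoid targets, 20 rose and 2 fell, with a median log2 change of 1.15. FKBP5, a co-chaperone of steroid receptors, was at 28.1 and 44.4 CPM in vehicle and 726 and 1080 CPM at 10 nM (4.64 ± 0.42). TSC22D3, known as GILZ, a mediator of glucocorticoid action, was at 16.9 and 20.7 CPM and then at 146 and 133 CPM (2.89 ± 0.19). PDK4, a kinase that restrains pyruvate dehydrogenase, went from 3.61 and 3.47 to 51.9 and 55.2 CPM (3.92 ± 0.14). All 3 genes had treated libraries several times above vehicle.

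HSD11B2, the enzyme that inactivates cortisol, rose from 3.05 and 3.03 to 61.1 and 83.9 CPM. SERPINE2, a secreted protease inhibitor, rose from 0.811 and 0.433 to 22.5 and 21.0 CPM (5.12 ± 0.42). MAP3K6, a stress-activated kinase, had a smaller rise, from 24.4 and 26.7 to 51.8 and 63.7 CPM (1.18 ± 0.20). KLF15, a Krüppel-like transcription factor, rose by 3.01 ± 0.24 on the log2 scale, and ZBTB16, another zinc finger factor, had 0 vehicle counts and 31 and 69 counts at 10 nM, at least 17.1-fold higher.

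The promoters of TSC22D3, SERPINE2 and MAP3K6 are shown because they are the described target genes whose start region holds the core of the steroid hormone response element, ACANNNTGT. Each window is the 300 bases from 250 before to 50 after the start in RefSeq's GRCh38.p14 table, written 5′ to 3′ on the gene's strand, with the match in capitals. TSC22D3 lies at chrX:107775939-107776238 (minus strand, match 7 bases before the start), SERPINE2 at chr2:224031429-224031728 (minus strand, 232 bases before) and MAP3K6 at chr1:27366912-27367211 (minus strand, 150 bases before).

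TSC22D3: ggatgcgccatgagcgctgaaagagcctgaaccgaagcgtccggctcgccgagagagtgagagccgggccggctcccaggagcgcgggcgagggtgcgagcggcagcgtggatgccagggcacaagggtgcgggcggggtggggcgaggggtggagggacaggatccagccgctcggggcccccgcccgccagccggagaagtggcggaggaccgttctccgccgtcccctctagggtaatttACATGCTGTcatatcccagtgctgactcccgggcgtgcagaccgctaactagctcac

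SERPINE2: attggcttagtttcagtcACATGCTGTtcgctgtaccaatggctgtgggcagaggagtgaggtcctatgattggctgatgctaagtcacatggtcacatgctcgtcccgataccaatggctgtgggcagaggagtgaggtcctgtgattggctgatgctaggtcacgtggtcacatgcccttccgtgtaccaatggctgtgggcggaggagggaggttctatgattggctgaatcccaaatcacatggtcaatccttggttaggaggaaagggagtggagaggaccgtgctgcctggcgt

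MAP3K6: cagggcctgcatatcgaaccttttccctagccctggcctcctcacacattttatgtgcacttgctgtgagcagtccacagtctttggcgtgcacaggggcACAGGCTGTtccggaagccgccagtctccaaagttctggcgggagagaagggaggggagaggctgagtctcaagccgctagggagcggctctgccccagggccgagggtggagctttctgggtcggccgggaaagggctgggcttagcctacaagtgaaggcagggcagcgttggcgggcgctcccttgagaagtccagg

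The core reads the same on both strands. It occurred in 4 of 33 list members with a promoter in the table (12.1%; the fourth was IRS2), in 2.77% of the promoters of tested genes and in 5.45% of all promoters in the table. Among genes that rose 45 of 2125 promoters held it (2.12%), among genes that fell 45 of 1667 (2.70%) and among genes not called 220 of 7403 (2.97%). Of other genes described here, ACOT6, which rose, and ID1 and ESR1, which fell, also held it. FKBP5, SGK1, PDK4, KLF15 and PGR had no match in this window. A match is a description of letters in this window, and 11195 of the 13872 tested genes (80.7%) had a window.

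Estrogen receptor targets went both ways, with 7 of 24 tested members higher and 8 lower (median -0.07). GREB1, a coregulator of steroid receptors, rose from 160 and 156 CPM to 1106 and 983 CPM (2.72 ± 0.13). RET, a receptor tyrosine kinase, rose from 0.839 and 0.731 to 12.8 and 11.9 CPM. CA12, a membrane carbonic anhydrase, rose from 77.2 and 89.1 to 282 and 265 CPM (1.72 ± 0.09). Against these, IGFBP4, a secreted protein that binds insulin-like growth factors, fell from 166 and 176 to 30.7 and 31.4 CPM (-2.46 ± 0.13). Without vehicle replicate 1, 4 members rose and 8 fell, and the median ran from -0.23 (without 10 nM replicate 3) to 0.06 (without vehicle replicate 3).

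Of 24 tested genes of cholesterol synthesis and uptake, 16 rose and 0 fell, with a median log2 change of 1.19 (range -0.42 to 2.28). In 22 of the 24 both treated libraries lay above both vehicle libraries, against 33.2% of all tested genes. This pathway turns acetyl-CoA into sterols through mevalonate and squalene, and its genes are known as targets of SREBP2. SREBF2, which encodes that factor, was at 269 and 225 CPM in vehicle and 470 and 464 CPM at 10 nM (0.92 ± 0.15). PMVK, phosphomevalonate kinase, rose from 46.1 and 52.1 to 158 and 177 CPM (1.77 ± 0.12). DHCR7, which makes cholesterol in the last reduction step, rose from 193 and 111 to 710 and 768 CPM (2.28 ± 0.39). EBP, the sterol isomerase, rose from 40.2 and 31.0 to 93.9 and 81.1 CPM (1.30 ± 0.20).

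The replicates had an order of their own here: in 20 of the 24 members replicate 3 was lower than replicate 1 in both groups, an order whose part in the results was not tested. Squalene epoxidase, SQLE, was at 236 and 142 CPM in vehicle and 590 and 447 CPM at 10 nM (edgeR adjusted p = 0.0145). The call was lost without 10 nM replicate 1 (0.0737) and without vehicle replicate 3 (0.094). HMGCS1, a synthase early in the pathway, had a log2 change of 1.01 that was not called (edgeR adjusted p = 0.197, and 7.09e-05 with the replicate block). With the block 22 members rose and 2 fell. Without 10 nM replicate 1 or without vehicle replicate 3, 5 rose.

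Promoters of SREBF2, EBP and DHCR7 are shown for a motif that most of the list shares, the CCAAT box, and for the sterol response element, which SREBF2 alone of the list holds in this window. The sterol element, TCACNCCAC, was searched on both strands and is in capitals for SREBF2 (chr22:41832855-41833154, plus strand, 133 bases before the start). The CCAAT box, also searched on both strands and so written CCAAT or ATTGG, is in capitals for EBP (chrX:48521558-48521857, plus strand, 3 matches) and DHCR7 (chr11:71448344-71448643, minus strand, 2 matches). Build, window and orientation are those given above.

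SREBF2: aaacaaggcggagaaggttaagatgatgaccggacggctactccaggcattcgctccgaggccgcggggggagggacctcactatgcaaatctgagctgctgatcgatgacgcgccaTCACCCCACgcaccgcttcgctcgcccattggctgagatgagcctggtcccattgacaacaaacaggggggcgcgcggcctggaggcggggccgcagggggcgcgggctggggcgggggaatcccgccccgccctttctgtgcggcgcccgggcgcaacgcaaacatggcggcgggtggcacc

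EBP: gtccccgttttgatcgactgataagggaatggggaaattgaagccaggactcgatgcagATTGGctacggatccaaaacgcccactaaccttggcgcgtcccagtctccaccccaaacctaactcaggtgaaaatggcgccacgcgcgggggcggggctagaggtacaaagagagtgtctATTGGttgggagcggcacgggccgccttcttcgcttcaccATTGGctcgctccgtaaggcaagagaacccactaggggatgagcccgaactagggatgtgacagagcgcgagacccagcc

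DHCR7: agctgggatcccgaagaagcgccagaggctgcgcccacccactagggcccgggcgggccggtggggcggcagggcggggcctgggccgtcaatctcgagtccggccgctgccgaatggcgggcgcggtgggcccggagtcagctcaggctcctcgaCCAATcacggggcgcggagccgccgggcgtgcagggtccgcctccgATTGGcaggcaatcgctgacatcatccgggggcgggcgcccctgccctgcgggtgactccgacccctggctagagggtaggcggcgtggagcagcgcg

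A CCAAT box occurred in 15 of the 18 list members with a promoter in the table (83.3%). It occurred in 36.5% of tested genes with a promoter and in 36.7% of those that rose. The box is not particular to this list: 33 of 42 mitosis promoters (78.6%) and 24 of 45 replication promoters (53.3%) held it. The sterol element occurred in 1 of the 18 members, SREBF2, against 1.12% of tested genes with a promoter.

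Genes of fatty acid synthesis and lipid storage also rose: 16 of 26 tested members were higher and 2 lower (median 1.01). SCD, the desaturase that makes oleate, was at 1021 and 546 CPM in vehicle and 4105 and 3591 CPM at 10 nM (2.30 ± 0.40). Its treated libraries were close while the vehicle libraries differed. ELOVL5, an elongase of polyunsaturated fatty acids, rose from 201 and 209 to 526 and 580 CPM (1.43 ± 0.10). ACACA, acetyl-CoA carboxylase, which commits acetyl-CoA to fatty acids, rose from 142 and 133 to 335 and 346 CPM (1.30). ACSL3, an acyl-CoA synthetase of lipid droplets, rose by 1.31 and ELOVL6, the elongase of palmitate, by 1.51 on the log2 scale.

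FASN, fatty acid synthase, was at 487 and 619 CPM in vehicle and 1215 and 2172 CPM at 10 nM (1.61 ± 0.37, edgeR adjusted p = 0.00947), with replicate 3 the higher of each pair. SREBF1, whose product drives fatty acid genes, showed the same order (75.8 and 93.1 against 180 and 285 CPM, edgeR adjusted p = 0.00853). Without 10 nM replicate 3 neither was called (0.0657 for FASN, 0.0581 for SREBF1), nor without vehicle replicate 1 (0.0669 and 0.0611). CPT1A, which brings fatty acids into mitochondria for oxidation, was 1 of the 2 members that fell, from 390 and 417 to 272 and 269 CPM (-0.58). THRSP, a lipogenic factor, had no vehicle count and 13 and 61 counts at 10 nM. The mean of these unequal libraries was at least 12.6-fold higher.

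**Figure D3:**
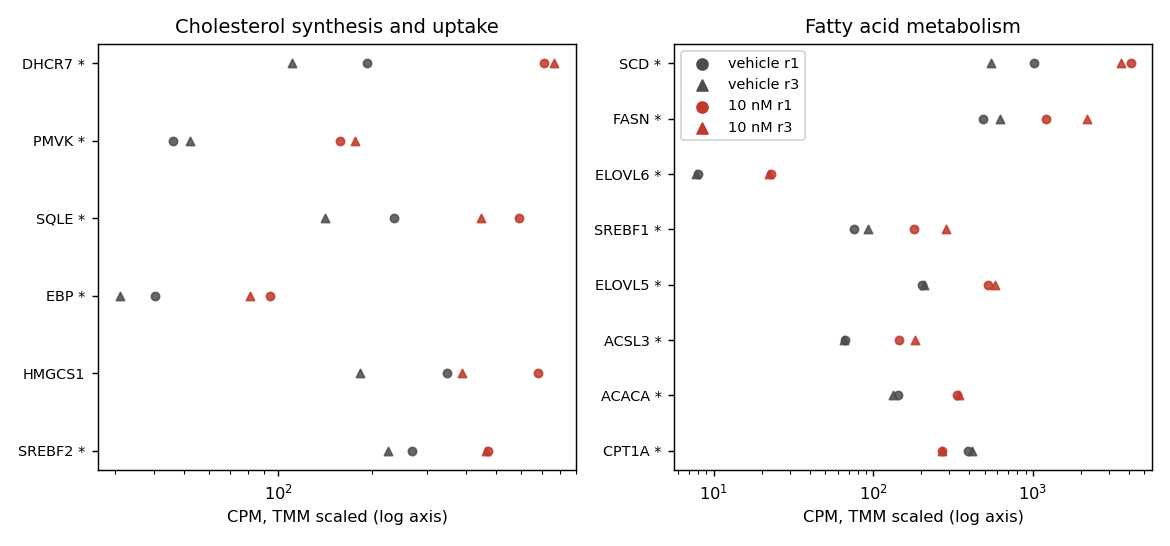
Levels (CPM, logarithmic axis) of the 6 cholesterol and 8 fatty acid genes described, in the 2 vehicle and 2 10 nM libraries at 18 h, with an asterisk on genes called at an edgeR adjusted p under 0.05. In all 6 cholesterol genes and in 7 fatty acid genes both 10 nM points lie to the right of both vehicle points, and CPT1A lies the other way.

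Steroid metabolising enzymes included 10 risen and 2 fallen of 22 tested (median 0.34). HSD17B2, which oxidises estradiol to estrone, had 3 counts over the vehicle libraries and 429 over the 10 nM libraries (4.13 and 8.01 CPM). The ratio was 148, with an exact 95% binomial interval from 50 to 718 for counting error only. HSD17B12, an enzyme of fatty acid elongation and steroid reduction, rose by 0.87. AKR1C3, a ketosteroid reductase, rose by 3.89, but it has near-identical relatives and how the counting treated shared reads is not given in the sources used here.

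Ion and water transport genes split 7 higher and 5 lower of 22 tested (median 0.11), where 19.0% of all tested genes rose and 15.2% fell. NEDD4L, a ubiquitin ligase that controls the epithelial sodium channel and is a substrate of SGK1, rose from 62.3 and 62.0 CPM to 127 and 125 CPM (1.02), with hardly any spread between replicates. KCNK5, a potassium leak channel, fell from 24.2 and 15.8 to 1.46 and 1.97 CPM (-3.54). Without 10 nM replicate 3 or vehicle replicate 3, 3 members fell, and the median ran from -0.05 (without 10 nM replicate 1) to 0.23 (without 10 nM replicate 3).

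Nuclear genes of oxidative phosphorylation rose in 16 of 43 cases and fell in 0, with a small median of 0.18. NDUFS1, the largest subunit of complex I, went from 99.8 and 100 to 201 and 192 CPM (0.98). Other examples were UQCRC1 of complex III (1.05), COX5A of complex IV (0.91) and SDHD of complex II (0.47). The list's rise was therefore mostly under 2-fold, and the 27 other members were not called. Without 10 nM replicate 3, 9 rose, and without vehicle replicate 1 or 3, 10 rose.

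Glycolysis genes rose in 8 of 22 cases and 1 fell (median 0.20). ALDOA, aldolase, rose from 1380 and 1221 to 3778 and 3605 CPM (1.51). PFKFB3, which makes the activator of phosphofructokinase, was at 80.0 and 64.2 CPM and then at 457 and 254 CPM (2.30). LDHA, lactate dehydrogenase, rose by 0.95, and PFKM, the muscle phosphofructokinase, fell by 0.75. With the block 12 rose and 3 fell, without vehicle replicate 3, 4 rose and 1 fell, and without 10 nM replicate 1, 5 rose and 1 fell. The median was 0.01 without 10 nM replicate 1, 0.09 without vehicle replicate 3, 0.38 without 10 nM replicate 3 and 0.39 without vehicle replicate 1.

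Luminal epithelial genes fell as a list: 14 of 22 tested members were lower and 1 was higher (median -0.75). GATA3, a transcription factor that maintains luminal identity, went from 1259 and 1274 CPM to 392 and 465 CPM (-1.56 ± 0.10). FOXA1, the pioneer factor that opens chromatin for steroid receptors, went from 384 and 403 to 87.0 and 118 CPM (-1.94 ± 0.19). Keratins of simple epithelium moved with them. KRT8 went from 2404 and 2204 CPM to 913 and 1007 CPM (-1.26 ± 0.12), and its partner KRT18 from 1468 and 1355 CPM to 502 and 609 CPM (-1.35 ± 0.11).

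KRT19, another simple keratin, fell less, from 3007 and 3189 to 1847 and 1752 CPM (-0.78 ± 0.10). ELF5, the factor that directs alveolar differentiation, was at 308 and 344 CPM against 154 and 207 CPM (-0.85). MUC1, an apical mucin, was the only riser of the list, from 1038 and 1026 to 1765 and 1980 CPM (0.86 ± 0.13). EPCAM, an epithelial adhesion molecule, changed by 0.17 and CDH1, E-cadherin, by -0.35, neither called (edgeR adjusted p with the block 0.0238 and 0.000465). Members of the list thus differed in direction and size.

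Of 18 tested basal and myoepithelial genes 5 rose and 3 fell (median 0.03), where 19.0% of all tested genes rose and 15.2% fell. Without vehicle replicate 3, 3 rose and 2 fell, and the median ran from -0.08 (without 10 nM replicate 1) to 0.26 (without vehicle replicate 1). CD44, a hyaluronan receptor, rose from 108 and 85.9 CPM to 678 and 463 CPM (2.56 ± 0.24). KRT5, the basal keratin, was at 0.0839 and 0.0542 CPM in vehicle and at 2.35 and 7.02 CPM at 10 nM (6.02 ± 0.85). LAMA3, a chain of laminin 332, rose from 14.5 and 17.3 to 49.0 and 50.5 CPM, and OXTR, the oxytocin receptor, fell by 2.87.

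Called ERBB receptors and ligands moved in opposite directions: of 11 tested members 4 rose, all ligands, and 3 fell, all receptors. The 4 others were not called, and by DESeq2 or with the block 6 members rose and 4 fell. ERBB2, the HER2 receptor, went from 482 and 488 CPM to 150 and 158 CPM (-1.66 ± 0.08), and ERBB4 fell by 1.94. EGF, a ligand of EGFR, rose from 1.51 and 1.30 to 33.6 and 24.9 CPM (4.38 ± 0.24), and TGFA, another EGFR ligand, rose by 1.33. EREG, also an EGFR ligand, had 0 counts in vehicle and 22 and 23 at 10 nM, at least 7.74-fold higher.

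**Figure D4:**
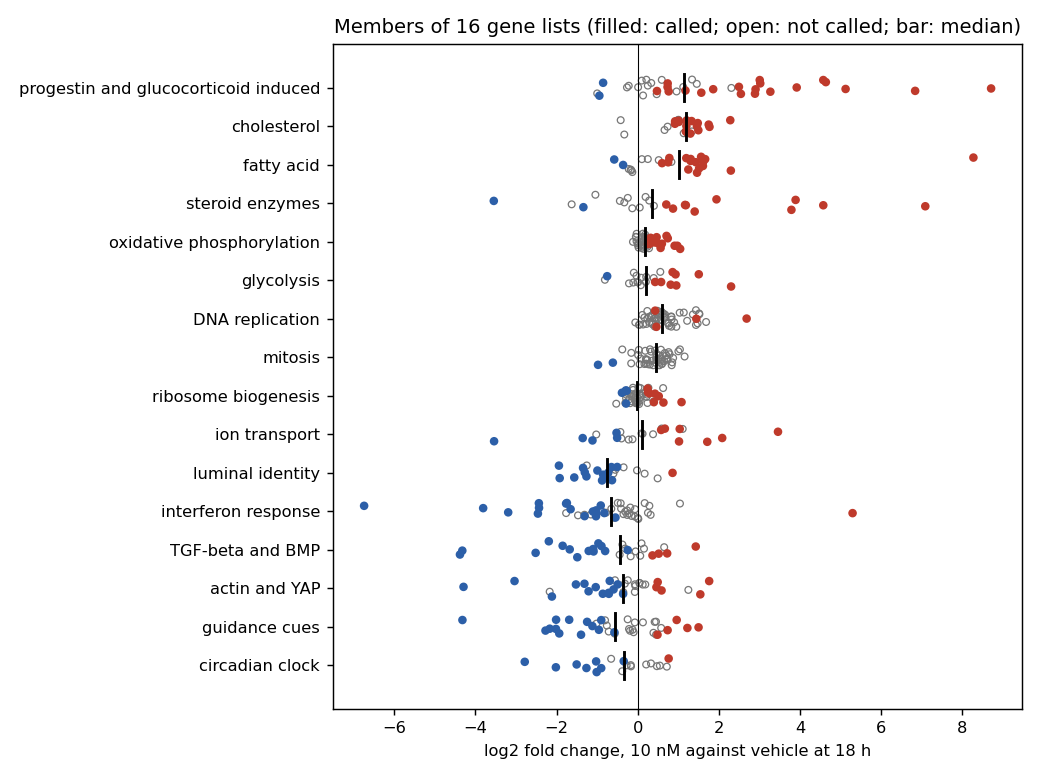
Log2 fold change at 10 nM against vehicle at 18 h for the tested members of 16 gene lists, 1 point per gene, filled where edgeR's adjusted p was under 0.05, with a bar at the list's median. The medians of the cholesterol (1.19), progestin (1.15) and fatty acid (1.01) lists lie highest, and that of the luminal list (-0.75) lies lowest of the 16.

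Cell cycle genes were mostly not called at 18 h in the fit without the replicate block, and more were called with it. Of 53 tested replication and S phase genes 4 rose and 0 fell (median 0.59), and of 50 genes of mitosis 0 rose and 2 fell (median 0.46). GINS2, a subunit of the replicative helicase, rose from 15.7 and 23.8 CPM to 99.0 and 155 CPM (2.69 ± 0.36), and POLD2, a subunit of DNA polymerase delta, by 0.46. In both groups replicate 3 was above replicate 1 for 50 of the 53 replication genes and for 46 of the 50 mitosis genes, an order whose part in these counts was not tested. MCM6, a helicase subunit, was at 28.4 and 36.5 CPM against 43.2 and 77.8 CPM (edgeR adjusted p = 0.0557, and 0.000201 with the block). CCNE2, cyclin E2, was at 8.98 and 18.9 CPM against 21.5 and 61.3 CPM (0.0729, and 0.000107 with the block).

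For both of these genes the 10 nM libraries lay farther from each other, in CPM, than the group means did. MKI67, the proliferation marker, was at 40.1 and 65.0 CPM against 63.4 and 126 CPM, so the groups overlapped (0.85 ± 0.38, edgeR adjusted p = 0.12, 0.00321 with the block, 0.0413 without 10 nM replicate 1). By DESeq2 15 replication genes rose and 0 fell. With the block 40 rose and 0 fell, and 18 mitosis genes rose and 3 fell. Without 10 nM replicate 1 the counts were 19 and 0, and 3 and 2. When any of the other 3 libraries was left out 2 replication genes rose. The medians moved as well: without 10 nM replicate 3 that of the replication genes was 0.15 and that of the mitosis genes changed sign to -0.31, and without 10 nM replicate 1 they were 0.91 and 0.94. Without vehicle replicate 1 the mitosis median was 0.13, and without vehicle replicate 3 it was 0.93.

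ASPM, a spindle pole protein, was at 94.0 and 86.0 CPM in vehicle and 36.3 and 55.1 CPM at 10 nM (-0.98), and BUB3, a spindle checkpoint protein, fell by 0.61. Of 21 G1 cyclins, kinases and E2F genes 3 rose and 0 fell (9 and 2 with the block, 5 and 0 without 10 nM replicate 1). CCND1, cyclin D1, went from 103 and 93.0 to 242 and 257 CPM (1.34 ± 0.17), and E2F3 rose by 0.64. Among 7 CDK inhibitors 2 rose (4 with the block): CDKN1A, which encodes p21, from 25.9 and 22.2 to 79.5 and 70.4 CPM (1.64 ± 0.15), and CDKN1B, which encodes p27, by 0.50. MYC was at 41.8 and 34.8 CPM against 92.5 and 59.5 CPM (0.99 ± 0.33, edgeR adjusted p = 0.0466), and its call was lost without 10 nM replicate 1 (0.25), vehicle replicate 1 (0.105) or vehicle replicate 3 (0.195).

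Interferon-stimulated genes fell in 17 of 45 cases and 1 rose (median -0.65). The riser was TRIM22, an antiviral ubiquitin ligase, from 1.06 and 0.623 CPM to 27.6 and 38.8 CPM (5.30). OAS2, a synthetase that activates RNase L, fell from 34.8 and 16.4 CPM to 2.64 and 1.01 CPM (-3.81 ± 0.59). IFITM1 and IFITM2, membrane proteins that block virus entry and that resemble each other closely in sequence, fell by 2.46 and 1.31. In 28 of the 45 replicate 3 was below replicate 1 in both groups. IFITM1, for example, was at 14.4 and 5.17 CPM in vehicle. Leaving out 10 nM replicate 1, 10 nM replicate 3 or vehicle replicate 1 left 7, 6 and 3 falls, and with the block there were 27.

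TGF-beta and BMP pathway genes fell in 14 of 27 cases and 4 rose (median -0.45). Beside TGFB2 and ID1 above, the ligand TGFB3 fell from 164 and 202 CPM to 42.8 and 58.7 CPM (-1.85), and ID3, a BMP target, from 52.1 and 64.7 to 13.4 and 12.2 CPM (-2.19). SMAD3, the transcription factor that carries the TGF-beta signal, fell by 0.97. The falls named thus included ligands, a signal carrier and BMP-responsive genes, while 4 members, not named here, rose and 9 were not called. When 10 nM replicate 1 was left out 1 rose and 10 fell, with a median of -0.80, and without vehicle replicate 1 or 3, 2 rose (medians -0.73 and -0.56).

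Actin cytoskeleton, focal adhesion and YAP target genes fell in 14 of 32 cases and rose in 5 (median -0.36). CTGF, a matricellular protein and YAP target, fell from 11.7 and 13.0 CPM to 1.75 and 1.26 CPM (-3.04), and AMOTL2 (-1.52) and AJUBA (-1.03), regulators of the Hippo pathway, fell as well. ACTB, beta actin, was at 6885 and 6965 CPM in vehicle and 3859 and 4582 CPM at 10 nM (-0.71), though pseudogenes share its sequence. VCL, vinculin of focal adhesions, went the other way, from 271 and 288 to 905 and 725 CPM (1.54). Without vehicle replicate 1, 3 rose and 9 fell, and without 10 nM replicate 1, 3 rose and 10 fell.

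Of 25 integrin, laminin and collagen genes 9 fell and 5 rose (median -0.18). LAMA5, a laminin chain of the basement membrane, fell from 962 and 889 CPM to 422 and 360 CPM (-1.24). FN1, fibronectin, fell from 206 and 187 to 79.5 and 62.9 CPM (-1.47), and COL18A1, a basement membrane collagen, by 1.15. Without vehicle replicate 1, 4 fell and 2 rose, without 10 nM replicate 3, 5 and 4, without 10 nM replicate 1, 7 and 3, and without vehicle replicate 3, 8 and 1 (median -0.34). Guidance genes (semaphorins, plexins, Slit, Robo and ephrin genes) fell in 13 of 35 cases and rose in 5 (median -0.57). Besides ROBO2, SEMA3C, a secreted semaphorin, fell from 141 and 129 to 35 and 32 CPM (-2.01), ROBO1 by 1.69 and EPHB3, an ephrin receptor, by 1.93. The guidance median was -0.35 without vehicle replicate 1 and -0.29 without vehicle replicate 3.

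Smaller lists held strong single changes, and their counts are to be set beside the 19.0% of all tested genes that rose and the 15.2% that fell. JAG1, a Notch ligand, rose from 9.65 and 9.26 CPM to 89.1 and 68 CPM (3.05), NOTCH2, a receptor, from 350 and 301 to 1225 and 1089 CPM (1.83), and DLL4, another ligand, by 4.04, while NOTCH3 fell by 0.69, with 4 risen and 5 fallen of 20 tested Notch genes (3 and 3 without vehicle replicate 1). Among 16 MAP kinase phosphatases and Sprouty genes, which damp ERK signalling, 7 fell, such as SPRY1 (-1.94), DUSP10 (-1.39) and DUSP8 (-0.71), and 2 rose, such as DUSP4 (3.06). Without 10 nM replicate 1 or vehicle replicate 3, 4 of these fell and 1 rose, and without vehicle replicate 1, 4 fell and 2 rose. Circadian genes fell in 8 of 19 cases and 1 rose, with all 3 PAR-domain factors of the clock output lower (TEF -1.01, HLF -2.02, DBP -1.02) and PER3, a period gene, at -1.26. With the block 12 of these fell and 3 rose, and without vehicle replicate 1, 5 fell and 0 rose. BCL2, an inhibitor of apoptosis, fell from 16.3 and 13.5 CPM to 1.58 and 0.899 CPM (-3.59), and BMF, which antagonises BCL2 proteins, rose by 2.17.

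The effect of 10 nM at 18 h was next set against its effect at 6 h, where separate vehicle libraries were used, by the interaction of dose and time. At 6 h 3132 genes (22.6%) rose and 2694 (19.4%) fell. The 2 effects differed for 1462 genes (10.5%), with 631 more positive at 18 h (4.55%) and 831 more negative (5.99%). With the block the count was 4863, and with 1 of the 8 libraries left out it ran from 467 (vehicle replicate 1 at 18 h) to 860 (10 nM replicate 1 at 18 h), so this count is less firm than that of the effect itself. The counts without the others were 739 (10 nM replicate 3 at 18 h), 631 (vehicle replicate 3 at 18 h), 610 and 791 (10 nM replicates 1 and 3 at 6 h) and 645 and 492 (vehicle replicates 1 and 3 at 6 h).

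Ribosome biogenesis genes rose early and were mostly not called later. At 6 h 41 of 48 tested members rose and 1 fell (median 0.73), and at 18 h 8 rose and 4 fell (median -0.01). For 27 members the effect was lower at 18 h by the interaction test and for 0 it was higher (14 without vehicle replicate 3 at 6 h, 15 without vehicle replicate 1 at 18 h and 27 at most when 1 library was left out). NOP14, a factor of the small ribosomal subunit's assembly, was at 88.4 and 85.1 CPM in vehicle and 210 and 220 CPM at 10 nM at 6 h, and at 92.6 and 94.3 against 124 and 122 CPM at 18 h (interaction -0.91 ± 0.10, edgeR adjusted p = 0.00209). TSR1, another assembly factor, was the member with the largest rise at 18 h, from 63.6 and 66.8 to 137 and 139 CPM. At 18 h itself 12 rose and 12 fell with the block, and fewer rose with 0 falls when a library was left out (2 without 10 nM replicate 1, 5 without 10 nM replicate 3, 4 without vehicle replicate 1, 3 without vehicle replicate 3).

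A few lipid genes had a larger effect at 18 h. PMVK was at 64.7 and 79.5 CPM at 10 nM for 6 h, against 50.2 and 50.3 CPM in vehicle, and at 158 and 177 CPM by 18 h (interaction 1.25 ± 0.17, edgeR adjusted p = 0.0043). ELOVL6 hardly differed at 6 h (9.08 and 10.8 against 9.55 and 12.2 CPM) and was at 22.7 and 22.2 CPM at 18 h (interaction 1.39). At 6 h 4 cholesterol genes rose and 1 fell (median 0.32), against the 16 and 0 at 18 h, and the difference between times was called for 2 of them, for 1 when any 1 of the 8 libraries was left out, and for 18 with the block. Of the fatty acid list 8 rose and 4 fell at 6 h (median 0.22), and 4 had a higher effect at 18 h (15 with the block). That count was 2 without 10 nM replicate 3 at 18 h, 10 nM replicate 1 at 6 h or either vehicle replicate at 6 h.

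Actin and YAP genes lost ground between the times. At 6 h 12 rose and 4 fell (median 0.16), and the effect was lower at 18 h for 12 members and higher for 2 (22 and 2 with the block). These counts fell to 4 and 1 without vehicle replicate 3 at 6 h and were 9 and 1 at most when another library was left out. Falls that deepened included FGF12 (12.5 and 11.5 CPM at 6 h and 1.09 and 1.12 CPM at 18 h, interaction -3.49 ± 0.18) and BCAS1 (84.8 and 80.6 CPM at 6 h and 10.2 and 13.8 CPM at 18 h, interaction -3.02 ± 0.18). By contrast the luminal list was similar in count at both times, 1 higher and 14 lower at 6 h (median -0.73), with 4 members higher and 2 lower by the interaction (8 and 5 with the block, and 2 to 4 in all with any 1 of the 8 libraries left out).

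At the same time, 10 nM was then compared directly with 100 pM. The 10 nM libraries were higher for 2051 genes (14.8%) and lower for 1584 (11.4%), 26.2% together. The count was 3635, and it was 2376 without 100 pM replicate 3, 2286 without 10 nM replicate 1 and 6958 with the block. Against the same vehicle libraries 100 pM raised 911 genes (6.57%) and lowered 539 (3.89%), and since both effects share those libraries their values are set side by side without further comparison.

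GPR124 was at 2.36 and 1.97 CPM at 100 pM, no higher than the 2.91 and 2.71 CPM of vehicle, and at 214 and 276 CPM at 10 nM (difference between doses 6.82 ± 0.31). CNTFR showed the same, at 0.338 and 0.535 CPM at 100 pM, 0.531 and 0.433 in vehicle, and 26.3 and 29.7 CPM at 10 nM (6.00 ± 0.31). SEPT14 (7.66), SCRG1 (6.00) and ELFN2 (5.73) completed the largest positive differences. SCRG1 had already risen at 100 pM, to 0.415 and 0.394 CPM (edgeR adjusted p = 0.00428 against vehicle), while GPR124 and CNTFR were not called at that dose.

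AQP3, an aquaporin, went the other way: it was at 6.01 and 4.50 CPM in vehicle, 81.1 and 59.6 CPM at 100 pM, and 7.09 and 8.60 CPM at 10 nM (difference between doses -3.17 ± 0.19). CYP4Z1, a mammary cytochrome P450, was at 2.57 and 3.22, 31.6 and 44.2, and 2.55 and 4.63 CPM in the same order (-3.40 ± 0.49), though a near-identical pseudogene exists. ELF5 was at 590 and 576 CPM at 100 pM, above the 308 and 344 CPM of vehicle, and at 154 and 207 CPM at 10 nM, below it (-1.69, edgeR adjusted p = 0.000105). Each of these genes was thus higher at the lower dose than in either vehicle or the higher dose.

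C1orf64 (-4.10) and OAS2 (-3.44) were also lower at 10 nM than at 100 pM. PIP, a secretory protein of apocrine cells, was at 506 and 1301 CPM at 100 pM and 50.1 and 148 CPM at 10 nM (-3.19, edgeR adjusted p = 0.0231), and this call was lost without 100 pM replicate 3 (0.115) or 10 nM replicate 1 (0.13). For 3 classic targets the libraries of the doses overlapped. FKBP5 was at 774 and 855 CPM at 100 pM (difference 0.15 ± 0.36, edgeR adjusted p = 0.801), SGK1 at 34.3 and 49.8 CPM (-0.14 ± 0.38, 0.824) and PGR at 626 and 393 CPM (-0.26 ± 0.29, 0.553). GREB1, at 499 and 432 CPM, did lie below 10 nM (1.17 ± 0.12).

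Gene lists differed between the doses as well. Luminal genes were lower at 10 nM than at 100 pM in 12 of 22 cases and higher in 1 (median -0.88). KRT8 was at 2500 and 2072 CPM at 100 pM, close to vehicle, and KRT18 at 1600 and 1485 CPM, both well above 10 nM (-1.25 ± 0.12 and -1.47 ± 0.11). GATA3 at 947 and 873 CPM lay between vehicle and 10 nM (-1.09 ± 0.10), and ERBB2 at 414 and 399 CPM did too (-1.40 ± 0.08). Of the cholesterol genes 8 were higher at 10 nM and 0 lower (median 0.83), while their median at 100 pM against vehicle was 0.27. That count was 3 without 100 pM replicate 3 or 10 nM replicate 1 and 21 with the block. PMVK was at 56.2 and 49.5 CPM at 100 pM, at the level of vehicle (difference between doses 1.66 ± 0.12).

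DNA replication genes had their larger median at 100 pM. At this dose 32 of 53 rose against vehicle and 0 fell (median 1.40), at 10 nM 4 and 0 (median 0.59), and in the direct comparison 4 were lower and 1 was higher at 10 nM, with a median difference of -0.81. Mitosis genes had a median of 0.99 at 100 pM, where 2 of 50 rose and 0 fell against vehicle, and of 0.46 at 10 nM. In the direct comparison 3 of 50 were lower and 0 higher at 10 nM. Most single members therefore did not pass the test of the difference. With a library left out the 10 nM median ran from 0.15 to 0.91 for replication genes and from -0.31 to 0.94 for mitosis genes. These counts moved with the replicates: with the block 48 replication and 34 mitosis genes were lower at 10 nM, without 10 nM replicate 3 it was 24 and 15, without 100 pM replicate 1 it was 11 and 5, and without 10 nM replicate 1 or 100 pM replicate 3 it was 0 and 2.

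**Figure D5:**
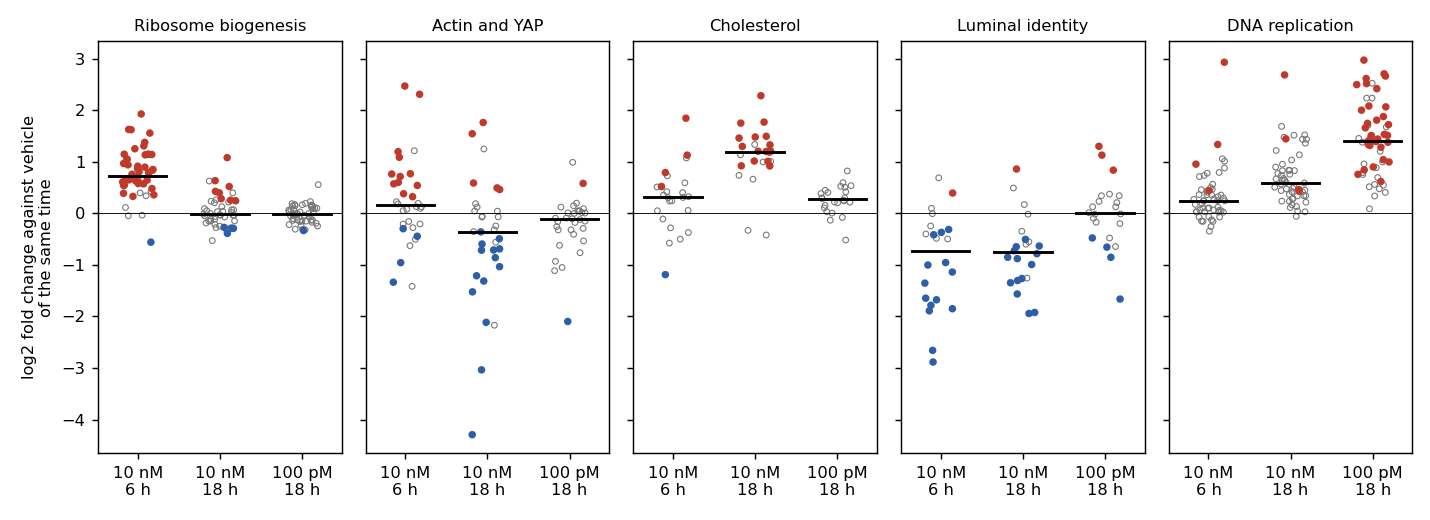
Log2 fold changes against the vehicle of the same time for the members of 5 lists (ribosome biogenesis, actin and YAP, cholesterol, luminal, DNA replication) at 10 nM for 6 h, 10 nM for 18 h and 100 pM for 18 h, 1 point per gene, filled where called, with a bar at the median. Ribosome biogenesis has a median of 0.73 at 6 h and -0.01 at 18 h, cholesterol genes stand out at 10 nM for 18 h (1.19), luminal genes lie low at 10 nM at both times, and replication genes lie highest at 100 pM (1.40); the last 2 columns share their vehicle libraries.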

How the data were processed

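Total RNA of T47D was sequenced from Nextera libraries. The authors deposited raw counts of reads per gene symbol, aligned to hg19 per the submitters' processing notes, which name STAR and DESeq2 without a role. The sources used here give no versions, counter, annotation, strand or handling of shared reads. The deposited table has 12 columns and 20114 symbols, 2709 without a count, and libraries of 34204970 to 41373890 counts. Genes were filtered by filterByExpr over the 6 groups, libraries scaled by TMM, and edgeR 4.0.16 (R 4.3.3, limma 3.58.1) fitted 1 robust quasi-likelihood model with 6 residual degrees of freedom; DESeq2 1.42.0 was an alternative. The fit was tested on simulated data.

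Same-numbered replicates deviated together (r across genes of 0.464 to 0.677 over 15 pairs of groups), and the labels do not say why, so a fit with replicate number as a block is given as an alternative. Within a group replicates differed by 56.1 (vehicle) and 62.4 (10 nM) chi-square per degree of freedom, so none repeated the same library.

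Named were the 12 largest called rises and falls with average log2 CPM of at least 2 and groups that do not overlap, 5 each way for the interaction and for 100 pM, up to 4 called members of each of 48 lists by adjusted p with members that define a list, and PGR, ESR1, NR3C1, FKBP5, TSC22D3, SGK1, CCND1, MYC, MKI67 and GREB1. Clone names, antisense genes and pseudogenes were not named, the results of some other eligible genes are not reported here, and MAP3K6, ZBTB16 and THRSP were chosen after their values were seen. Members and lists were chosen with earlier results of these data known. PCR copies cannot be recognised without molecular identifiers, so a floor or counting interval reflects counting error alone.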

Additional observations from a re-analysis of the deposited data

Results flagged for a closer look

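The effect of 10 nM differed between 6 h and 18 h, by the interaction test in edgeR, for 1462 genes. All values here are differences of log2 effects, 18 h minus 6 h. Among called genes averaging at least 2 in log2 CPM, the largest positive difference was that of FAM83A (5.116, adjusted p = 0.0043), an adaptor of growth factor signalling. FAM83A was at 3.26 and 2.56 CPM in vehicle and 0.221 and 0.169 CPM at 10 nM at 6 h. At 18 h it was at 3.66 and 3.03 CPM against 4.68 and 11.2 CPM. The estimate for SEPT14 was larger but not called (7.081 ± 3.067, adjusted p = 0.194). CSRNP3 (2.699) and RNF43 (2.624), a ubiquitin ligase that removes Wnt receptors, were low at 10 nM for 6 h (1.08 and 0.846 CPM, and 2.16 and 4.12 CPM) and nearer to vehicle at 18 h (4.71 and 5.00 CPM, and 14.2 and 22.4 CPM).

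SLPI (3.036), CLDN8 (2.92), a claudin of tight junctions, and the lipid genes PMVK (1.249) and ELOVL6 (1.386) had a larger effect at 18 h. SLPI and PMVK had risen by 6 h, while CLDN8 and ELOVL6 were not called then. SLPI went from 3.46 and 3.33 CPM at 6 h to 38.9 and 38.0 CPM at 18 h. Its adjusted p was 0.0255, and 0.0563 to 0.154 without any 1 of 7 of the 8 libraries, all but vehicle replicate 3 at 6 h. That of CLDN8 was 0.0468, and 0.0666 to 0.156 without either 10 nM replicate at 18 h, vehicle replicate 1 at 18 h, 10 nM replicate 1 at 6 h or either vehicle replicate at 6 h.

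More negative at 18 h were CTNND2 (-3.525), delta catenin, FGF12 (-3.489), ENTPD3 (-3.257), BCAS1 (-3.022), TPM4 (-2.957) and NOP14 (-0.9106). CTNND2 was at 17.7 and 8.15 CPM at 10 nM for 6 h and at 1.81 and 1.12 CPM at 18 h. Its adjusted p was 0.0289, and 0.0506 to 0.0997 without the same 6 libraries as for CLDN8.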

How the results depend on the processing

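The count of calls at 10 nM against vehicle at 18 h kept within 1.5 times of 4734 under 10 alternatives (3202 to 3588 with a library left out, 3289 with only the libraries compared, 5218 by DESeq2), and all of them had more rises than falls. The replicate block gave 7767. The interaction with time (1462) became 4863 with the block, 2316 by DESeq2 and 467 to 860 with a library left out. The difference between doses (3635) became 6958 with the block, 2016 with only the libraries compared and 2286 to 2900 with a library left out. The block took the biological coefficient of variation from 0.163 to 0.0678 with 5 residual degrees of freedom, and beyond the counts and genes given above the pairing changed no other call of a gene described here. Of 2021 values of single genes under the alternatives, 1967 kept their direction and call, 38 lost it, 11 gained it and 5, all for differences between doses that were not called, reversed. With a library left out, FKBP5 ran from -0.1923 (without 10 nM replicate 3) to 0.4076 (without 10 nM replicate 1), SGK1 from -0.5085 (without 10 nM replicate 3) to 0.1544 (without 100 pM replicate 3), with 0.1378 without 10 nM replicate 1, and PGR from -0.6366 (without 10 nM replicate 1) to 0.116 (without 100 pM replicate 1), with 0.01612 without 10 nM replicate 3. MYC was also not called without the filter (adjusted p = 0.0593) or with only the 18 h libraries (0.0752), and CLDN8 lost its interaction without the filter (0.0602) or with only the libraries compared (0.0889). MCM6 and CCNE2 were called by DESeq2 (0.0169 and 0.0133) and without 10 nM replicate 1 (0.0182 and 0.0295). With 2 libraries a group, a library left alone was taken to vary as those of other groups do. The causes of these changes were not tested.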

Other observations

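Some members of stress and growth lists rose at 10 nM for 18 h, as did 19.0% of all tested genes. Of 32 tested ATF4 target, serine synthesis and amino acid transport genes 9 rose and 1 fell (median 0.55; 22 and 3 with the replicate block, 5 and 1 without 10 nM replicate 1 or vehicle replicate 3). SLC1A4, a neutral amino acid transporter, went from 24.2 and 26.1 CPM to 66.8 and 70 CPM (1.45 ± 0.11), DDIT4, an inhibitor of mTORC1, from 72.3 and 71.4 to 224 and 213 CPM (1.61), and PYCR1, an enzyme of proline synthesis, rose by 0.84. Of 28 genes of the unfolded protein response and secretory pathway 8 rose and 0 fell (12 and 4 with the block, 4 and 0 without vehicle replicate 1), such as CREB3L2 (1.66), a membrane-bound transcription factor, and MANF, a secreted chaperone of the endoplasmic reticulum (21.1 and 26.8 against 66.3 and 73.3 CPM). Cytosolic chaperones rose in 7 of 24 cases (13 with the block, 4 without 10 nM replicate 1 or vehicle replicate 3), such as DNAJB4 (11.7 and 9.04 against 38.1 and 44.8 CPM). Of 19 hypoxia response genes 9 rose and 3 fell (7 and 1 without vehicle replicate 3), with P4HA2, a collagen prolyl hydroxylase, from 42.4 and 28.6 to 381 and 338 CPM (3.34 ± 0.29), and INSIG2, which restrains SREBP processing, from 44.5 and 42.7 to 24.4 and 19.1 CPM (-1.0).

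Signalling and junction genes were mixed, as were all tested genes (19.0% higher, 15.2% lower). Of 23 junction genes 9 rose and 3 fell, with CLDN12 (1.27), a claudin, and CGN (0.99), cingulin, higher and PARD6B (-0.93), a polarity protein, lower. Of 14 prolactin and STAT5 pathway genes 5 rose and 3 fell: JAK2, the receptor-bound kinase, went from 17.1 and 13.0 to 57.8 and 61.4 CPM (1.99) and GHR, the growth hormone receptor, rose by 1.12, while CISH, a feedback inhibitor, fell from 10.3 and 13.4 to 1.86 and 1.69 CPM (-2.73). Of 19 insulin and IGF genes 6 rose and 4 fell (5 and 2 without 10 nM replicate 1, vehicle replicate 1 or vehicle replicate 3), with IGFBP6 (3.24) and PIK3R1 (1.48), the regulatory subunit of PI3 kinase, among the rises. Krüppel-like factors rose in 4 of 14 cases and fell in 0 (9 and 1 with the block), with KLF4 from 32.2 and 27.3 to 145 and 105 CPM (2.07) and KLF9 from 4.05 and 6.42 to 20.6 and 17.5 CPM (1.86). Wnt receptors went both ways, FZD1 by 1.85 and FZD4 by -0.95.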
